A study of Mus musculus with 6 samples.

Results

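Oxidative phosphorylation transcripts were examined in the ribosome-bound RNA of MeA *Kiss1* cells. The genes were entries of the log2 CPM table (CPM, read counts scaled to a common library total). Their symbols carry stems used for nuclear-encoded subunits of the respiratory chain or ATP synthase. The genes were taken by the symbol stems Sdha to Sdhd, Uqcr, Cox4 to Cox8, Atp5, Cyc1 and Cycs. To these came Ndufa, Ndufb, Ndufc, Ndufs and Ndufv followed by a digit, which leaves out the complex I subunit gene *Ndufab1*. This selection gave 82 of 13886 genes under 81 symbols. Genes were placed by symbol alone, and a protein need not be a subunit of the complex named. This put 37 in complex I, 4 in complex II, 9 in complex III, 1 for cytochrome c, 13 in complex IV and 17 in complex V. The last gene carried the symbol *Ndufa13* a second time, and its identifier, ENSMUSG00000048967, belongs to *Yjefn3* in the reference annotation, so it was kept in the counts over 82 genes but in no complex.

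All 6 libraries came from female Kiss1Cre+/Rpl22HA+/+ mice, in which Cre expressed from the *Kiss1* gene switches on an HA tag on the ribosomal protein RPL22, so that tagged ribosomes and their RNA can be immunoprecipitated (IP) from punches of the medial amygdala (MeA). Each library was 1 pool of 4 mice, and the 3 pools of a group were different mice. Every female was ovariectomized (OVX) at 8 weeks of age, then treated with estradiol (E2) for 4 days and left without it for 7 days. The 3 OVX libraries had no further treatment and the 3 E2 libraries had E2 for 5 days. The tag marks cells in which Cre has acted at any time, a pool hides differences between its mice, and RNA from mice without Cre was not analysed here. *Kiss1* itself, under the identifier ENSMUSG00000115958, had a mean log2 CPM, with SD over 3 libraries, of 1.75 ± 0.59 under OVX and 3.66 ± 0.19 under E2, a difference that passed the test used throughout (limma with a mean-variance trend and Benjamini-Hochberg adjustment over all genes, adjusted p = 0.00475, and 0.329 without the trend). A second *Kiss1* entry, ENSMUSG00000116158, was at -2.12 ± 3.22 under OVX and 2.93 ± 0.27 under E2 and did not pass that test (limma, adjusted p = 0.0942). Scaled library sizes lay between 28.08M and 34.16M counts. Genes of other cells were present in every one: the summed CPM of 10 astrocyte markers ran from 1794 to 2340 and that of 10 oligodendrocyte markers from 1652 to 2553, beside 7881 to 8290 for 10 neuron markers. In such bulk RNA, fewer cells of a type and less RNA per cell cannot be told apart.

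Oxidative phosphorylation takes place in the inner mitochondrial membrane. Complexes I and II pass electrons from NADH and succinate to ubiquinone, complex III hands them to cytochrome c, complex IV gives them to oxygen, and the proton gradient built by complexes I, III and IV drives ATP synthase, complex V. Most subunits are encoded in the nucleus, a few in mitochondrial DNA, and neurons rely on the pathway for much of their ATP. Nuclear genes for these subunits are known targets of the transcription factors NRF1, GABP (an ETS family factor), YY1 and the estrogen-related receptors (ERR), which are orphan receptors and not the receptors of E2.

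Promoter windows, from 250 bases before to 50 bases after the transcript start (RefSeq, GRCm38.p6), were found for 64 of the 81 symbols, in 69 windows, and were searched on both strands for the plain letters of each motif. The stretches below run from 120 bases before to 20 bases after the start and are shown because each holds an NRF1, ETS or ERR motif in a gene described further on, at least 1 for each complex and 1 for cytochrome c. Capitals mark the motif letters, which are GCGCATGC for NRF1, CCGGAAG for ETS and TCAAGGTCA for ERR, or their reverse complements GCATGCGC, CTTCCGG and TGACCTTGA. The strand given is that of the gene, and each stretch reads 5′ to 3′ along it.
Ndufb7, chr8:83566638-83566777 (+ strand): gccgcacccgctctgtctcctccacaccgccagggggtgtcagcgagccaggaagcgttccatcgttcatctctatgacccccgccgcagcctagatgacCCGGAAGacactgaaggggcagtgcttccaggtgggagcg
Sdhb, chr4:140961151-140961290 (+ strand): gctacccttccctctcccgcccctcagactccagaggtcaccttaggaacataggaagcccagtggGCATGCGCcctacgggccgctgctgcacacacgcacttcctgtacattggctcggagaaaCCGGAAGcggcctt
Uqcr11, chr10:80406802-80406941 (- strand): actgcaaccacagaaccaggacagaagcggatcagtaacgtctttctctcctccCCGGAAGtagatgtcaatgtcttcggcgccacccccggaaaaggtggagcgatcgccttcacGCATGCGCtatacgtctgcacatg
Cycs, chr6:50566550-50566689 (- strand): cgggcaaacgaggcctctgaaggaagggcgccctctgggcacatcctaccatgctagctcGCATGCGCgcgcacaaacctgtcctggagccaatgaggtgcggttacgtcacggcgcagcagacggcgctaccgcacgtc
Cox8a, chr19:7217597-7217736 (- strand): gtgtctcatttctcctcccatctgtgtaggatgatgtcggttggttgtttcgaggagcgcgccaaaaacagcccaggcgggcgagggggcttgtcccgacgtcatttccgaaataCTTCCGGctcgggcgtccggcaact
Atp5g2, chr15:102671028-102671167 (- strand): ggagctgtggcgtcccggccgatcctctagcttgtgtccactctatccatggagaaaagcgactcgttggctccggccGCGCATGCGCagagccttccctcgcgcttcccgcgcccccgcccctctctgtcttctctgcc
Atp5g3, chr2:73911307-73911446 (- strand): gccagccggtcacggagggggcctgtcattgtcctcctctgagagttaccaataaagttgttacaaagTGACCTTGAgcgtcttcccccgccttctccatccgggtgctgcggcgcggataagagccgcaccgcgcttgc

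The NRF1 letters stood in 15.9% of the oxidative phosphorylation windows (11 of 69), against 4.83% of the 13895 windows of all listed genes and 2.71% of 32851 windows in all. In *Sdhb*, *Uqcr11* and *Cycs* they began 54, 4 and 60 bases before the start, and in *Atp5g2* the letters overlapped on both strands within a single palindrome. The ETS letters stood in 23.2% of the windows (16), against 15.7% of those of listed genes and 8.86% of all, and in *Sdhb* and *Uqcr11* they stood beside the NRF1 letters. The YY1 letters AAGATGGCG stood in 10.1% (7 windows) against 2.68% and 1.4%, and the ERR letters in 2.9% (2 windows, *Atp5g3* and *Sdhd*) against 0.288% and 0.423%. The letters GGGCGG, the core of an SP1 site, stood in 39.1% of the windows, below the 61.2% of listed genes, and CCAAT stood in 42.0%, beside 37.3%. The palindromic estrogen response element, GGTCA and TGACC with any 3 bases between, was in 0 of the 69 windows, where it was in 0.0144% of the windows of listed genes and 0.07% of all. These are matches of letters in a short window and were not tested as binding sites.

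None of these genes passed the test between E2 and OVX: an adjusted p under 0.05 was reached by 0 of the 82, and by 40 of all 13886 genes (0.288%), 32 of them higher (0.23%) and 8 lower (0.0576%) with E2. Weights from voom on counts rebuilt from the deposited values also called 0 of the 82, where they called 46 of all genes (0.331%). None of the 82 had an unadjusted p under 0.05 either, where 1188 of all genes (8.56%) did. The smallest p was 0.0634 (limma, adjusted p = 0.607), for *Uqcrq*. Among the 66 of the 82 genes with a mean log2 CPM between 5 and 8, again 0 had an unadjusted p under 0.05, where 564 of the 5599 listed genes in that range did.

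Each interval bounds, for a single gene in this fit, how large a change in its share of the pooled IP RNA could be. The 95% confidence interval of the log2 difference, E2 minus OVX, lay within ±0.5 for 77 of the 82 genes (93.9%), against 70.3% of all genes. It lay within ±0.25 for 57 genes (69.5%), against 31.0% of all genes. Among genes with a mean log2 CPM between 5 and 8, it lay within ±0.5 for all 66 of the oxidative phosphorylation genes and 97.7% of all listed genes, and within ±0.25 for 50 of the 66 (75.8%) and 61.7%. The differences ran from -0.48 to 0.17 with a median of 0.024, where the median over all genes was 0.003. They were above 0 for 52 of 82 genes (63.4%), against 7089 of all genes (51.1%). The plot of differences shows that the wide intervals belong to the few genes with low levels.

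**Figure D1:**
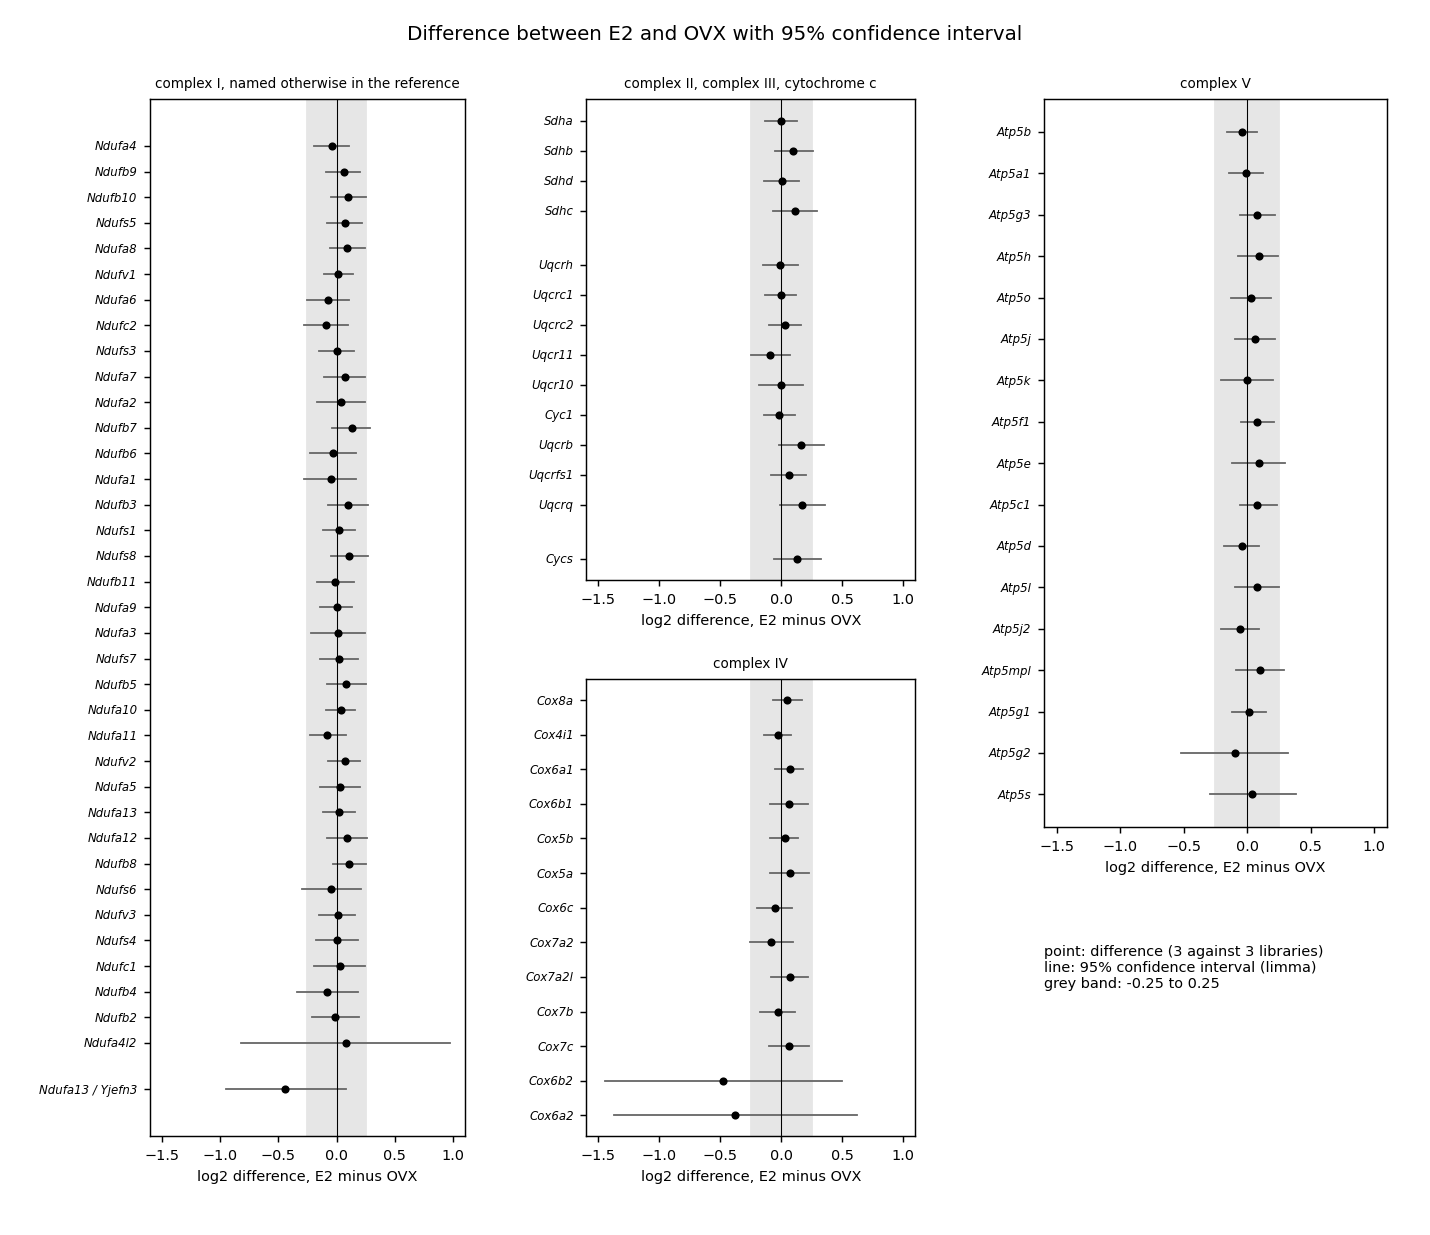
The log2 difference between E2 and OVX libraries (x axis, E2 minus OVX, 3 against 3 libraries) is plotted for 81 of the 82 genes by complex, with points for the estimate, lines for the 95% confidence interval from limma and a grey band from -0.25 to 0.25. All intervals drawn include 0, and the widest belong to *Cox6b2*, *Cox6a2* and *Ndufa4l2*.

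In complex I, which oxidizes NADH, 25 of 37 differences were above 0 and the median was 0.02. *Ndufb7*, an accessory subunit of the membrane arm, had the highest difference of the complex. Its log2 CPM was 5.43, 5.54 and 5.50 in OVX and 5.62, 5.69 and 5.54 in E2 libraries, a difference of 0.13 ± 0.08 (SE; limma, adjusted p = 0.701). The E2 libraries all lay above the OVX libraries, but the lowest E2 and the highest OVX value were the same to 2 decimals. *Ndufs8*, which carries iron-sulfur clusters in the arm that faces the matrix, was at 6.04, 5.95 and 6.11 in OVX and 6.12, 6.24 and 6.07 in E2 libraries (difference 0.11, 95% interval -0.05 to 0.27). Here the groups overlapped, since the lowest E2 library lay below the highest OVX library. *Ndufb9* and *Ndufb10*, accessory subunits among the highest of the complex per kilobase, differed by 0.06 and 0.10, with intervals from -0.09 to 0.20 and from -0.05 to 0.25.

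In complex II, succinate dehydrogenase, the flavoprotein gene *Sdha* was nearly level: it was at 8.80, 8.84 and 8.93 in OVX and 8.80, 8.94 and 8.82 in E2 libraries, with an interval of the difference from -0.13 to 0.13. *Sdhb*, the iron-sulfur subunit, was at 6.89, 6.85 and 7.01 in OVX and 7.01, 7.14 and 6.91 in E2 libraries (difference 0.10, interval -0.05 to 0.26). The membrane anchors *Sdhc* and *Sdhd* differed by 0.11 (interval -0.07 to 0.29) and 0.01 (interval -0.14 to 0.15). In all 4 genes the groups overlapped.

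Complex III held the 2 largest differences above 0. *Uqcrq*, a small subunit of the bc1 complex, was at 5.86, 5.93 and 6.16 in OVX and 6.14, 6.26 and 6.07 in E2 libraries. *Uqcrb*, a subunit near the ubiquinone binding site, was at 5.39, 5.39 and 5.68 in OVX and 5.66, 5.64 and 5.65 in E2 libraries. In both genes OVX replicates 1 and 2 lay below all E2 libraries, while OVX replicate 3 lay between E2 libraries for *Uqcrq* and just above them for *Uqcrb*. The differences were 0.17 ± 0.09 for *Uqcrq* (SE; limma, adjusted p = 0.607) and 0.16 ± 0.09 for *Uqcrb* (adjusted p = 0.651). Without OVX replicate 3 the smallest adjusted p among the 82 genes was 0.313, for *Uqcrb*. The core proteins *Uqcrc1* and *Uqcrc2* differed by -0.00 (interval -0.13 to 0.12) and 0.03 (interval -0.10 to 0.16), and *Uqcr11* and *Uqcrh* by -0.09 and -0.01. Of the 9 genes, 5 had a difference above 0. *Cycs*, cytochrome c, which carries electrons from complex III to complex IV, was at 5.41, 5.35 and 5.49 in OVX and 5.40, 5.72 and 5.53 in E2 libraries (difference 0.13, interval -0.06 to 0.33), with E2 replicate 1 inside the OVX range.

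In complex IV, cytochrome c oxidase, 7 of 13 differences were above 0. *Cox6a1*, the form of subunit VIa found outside heart and muscle, was 1 of the 3 genes whose groups did not overlap. It was at 7.32, 7.33 and 7.27 in OVX and 7.37, 7.35 and 7.40 in E2 libraries, all E2 values being higher, by 0.07 ± 0.05 (SE; limma, adjusted p = 0.805). *Cox8a* and *Cox4i1*, among the highest genes of the complex, differed by 0.05 (interval -0.07 to 0.17) and -0.03 (interval -0.14 to 0.08). *Cox7a2*, the liver-type form of subunit VIIa, and *Cox7b* differed by -0.08 and -0.03. The largest differences below 0 among the complexes were those of 2 genes at low levels, *Cox6b2*, known from testis, and *Cox6a2*, the heart and muscle form. *Cox6b2* was at 1.17, 1.5 and -0.08 in OVX and 0.19, 0.22 and 0.75 in E2 libraries, a difference of -0.48 with an interval from -1.45 to 0.50. *Cox6a2* was at 0.65, 0.44 and 0.07 in OVX and 0.39, 0.29 and -0.63 in E2 replicates 2, 3 and 1. In both the spread within a group was as wide as the gap between groups.

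In complex V, 11 of 17 differences were above 0. *Atp5b* and *Atp5a1*, the catalytic beta and the alpha subunit, were the highest of the 82 genes. *Atp5b* was at 10.1, 10.06 and 10.1 in OVX and 10.02, 10.12 and 10.01 in E2 libraries, the E2 values lying on both sides of the OVX values. *Atp5a1* was at 10.07 ± 0.07 (SD, n = 3) in OVX and 10.06 ± 0.07 in E2 libraries. The intervals of their differences ran from -0.16 to 0.08 and from -0.14 to 0.12. *Atp5g1*, *Atp5g2* and *Atp5g3* encode the same mature subunit c of the proton-carrying ring, and their differences were 0.01, -0.10 and 0.08. *Atp5g2* had an interval from -0.52 to 0.32 and *Atp5s* one from -0.29 to 0.38, the widest in this complex.

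**Figure D2:**
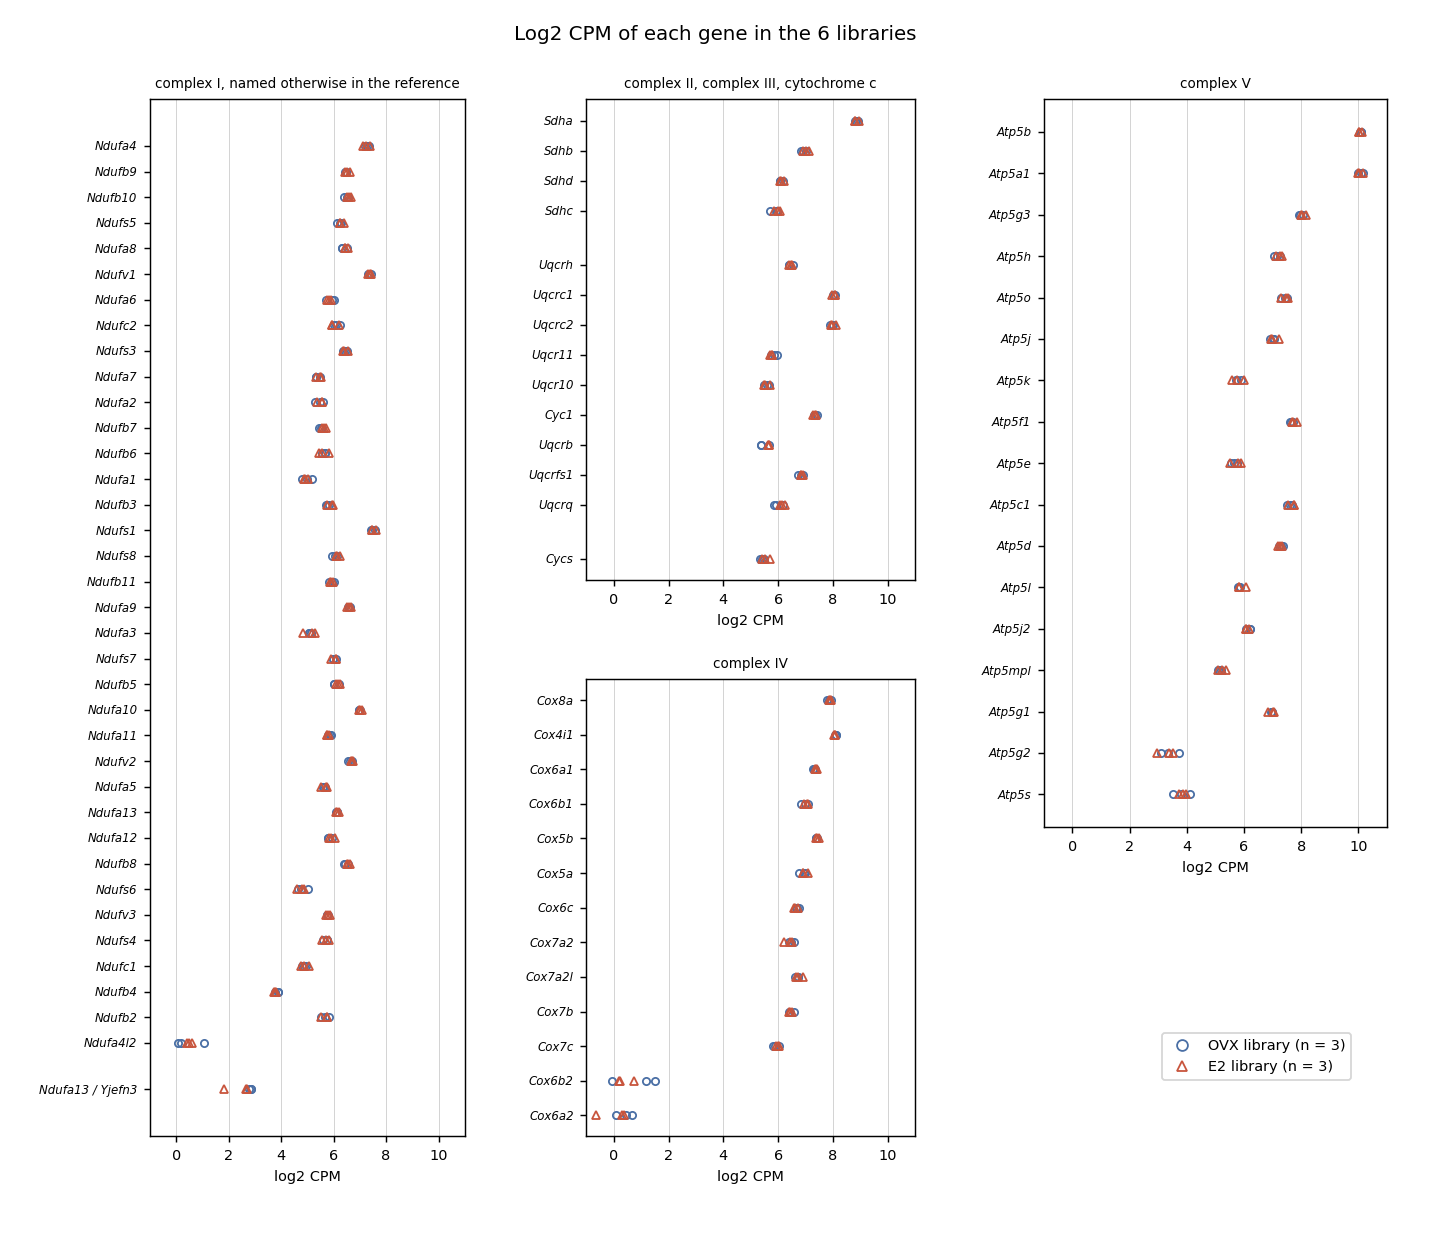
The log2 CPM of 81 of the 82 genes (x axis) is plotted by complex in the 3 OVX libraries (circles) and the 3 E2 libraries (triangles). Most genes sit between 5 and 8 with the 2 groups on top of each other, *Atp5a1* and *Atp5b* sit near 10, and the 3 genes below 2 are *Ndufa4l2*, *Cox6b2* and *Cox6a2*, together with E2 replicate 1 of the gene named *Yjefn3* in the reference.

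The groups did not overlap in 3 of the 82 genes (3.66%), where they did not in 13.7% of all genes and 15.4% of those with a mean log2 CPM between 5 and 8. The E2 libraries lay above in *Ndufb7* and *Cox6a1*, where 6.85% of all genes were so, and below in 1 gene, where 6.82% were. That gene was ENSMUSG00000048967, listed as *Ndufa13* and named *Yjefn3* in the reference, at chr8:69887788-69902712 (GRCm38), which spans the true *Ndufa13* (ENSMUSG00000036199, chr8:69894180-69902558). It was at 2.85, 2.84 and 2.77 in OVX and 1.80, 2.70 and 2.65 in E2 libraries, so that E2 replicate 1 alone was far below (difference -0.44, interval -0.95 to 0.08). The true *Ndufa13*, a subunit of complex I, was at 6.11, 6.08 and 6.14 in OVX and 6.11, 6.21 and 6.07 in E2 libraries. The 2 genes lie on the same strand, and none of the 75-base stretches of ENSMUSG00000048967 occurred in another annotated gene.

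The genes varied together by library. E2 replicate 2 was the highest of the 6 libraries in 39 of the 82 genes (47.6%), where it was the highest in 17.4% of all genes, and it was the lowest in 1. OVX replicate 2 was the lowest in 32 genes (39.0%, against 15.1% of all genes) and E2 replicate 3 in 24 (29.3%, against 13.0%), and each of these was the highest in only 3. Taken as deviations from a gene's mean over the 6 libraries, the median over the 82 genes was 0.090 in E2 replicate 2, -0.054 in OVX replicate 2, -0.046 in E2 replicate 3 and 0.039 in OVX replicate 3. The medians over all genes lay between 0.001 and 0.006. The median was also highest in E2 replicate 2 within complexes I, II, IV and V, where it was the highest library in 18 of 37, 3 of 4, 4 of 13 and 10 of 17 genes. In complex III it was the highest in 3 of 9 genes and OVX replicate 3 had the highest median. OVX replicate 2 had the lowest median in complexes I, II and III but E2 replicate 3 in complexes IV and V.

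**Figure D3:**
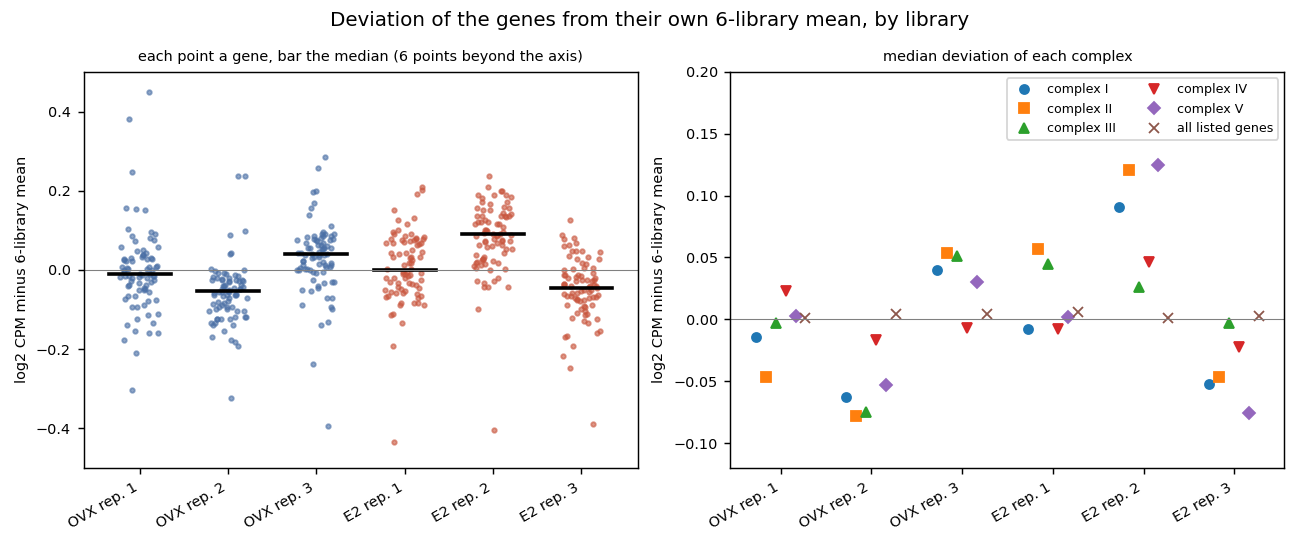
The log2 CPM minus the gene's mean over 6 libraries (y axis) is plotted by library, on the left for each of the 82 genes with a bar at the median and on the right as the median of each complex and of all listed genes. The median over the 82 genes is highest in E2 replicate 2 (0.090) and lowest in OVX replicate 2 (-0.054), while all genes stay near 0.

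The libraries of a group differed by more than the means of the groups. The CPM of the 82 genes summed to 9896, 9543 and 10162 in OVX and 9886, 10476 and 9627 in E2 libraries, or 9867 ± 310 (SD, n = 3) and 9996 ± 435. The ratio of the means was 1.01 and that of the highest to the lowest library was 1.1, and the sum was 0.993% of all counts. For complex I the sum ran from 2567 to 2860 over the 6 libraries and for complex V from 3664 to 4067, with E2 replicate 2 highest in both. Leaving out E2 replicate 2 turned the median difference from 0.024 to -0.006 and took the genes above 0 from 52 to 39, and leaving out OVX replicate 2 gave 0.002 and 43.

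Other gene groups also differed by library. The median deviation of the 78 mitochondrial ribosomal protein genes was 0.066 in E2 replicate 2, -0.063 in OVX replicate 2 and -0.043 in E2 replicate 3, and that of 615 listed genes with a longest transcript under 1000 nt was 0.068, -0.024 and -0.036. E2 replicate 2 was the highest library in 28.2% and 26.0% of these and in 43 of 80 cytosolic ribosomal protein genes (53.8%, median deviation 0.097). It was also the highest in 9 of 18 genes of the citrate cycle and pyruvate dehydrogenase. The same held for 7 of 14 mitochondrial carriers and related genes and 18 of 45 genes listed as assembly factors. In glycolysis genes E2 replicate 2 was the highest in 5 of 17 and OVX replicate 1 in 7. In antioxidant enzymes E2 replicate 2 was the highest in 2 of 9 and OVX replicate 1 in 4. For 17 listed regulators of mitochondrial genes the median deviation was -0.071 in E2 replicate 2, 0.042 in OVX replicate 2 and 0.061 in E2 replicate 3. The 82 genes are short, with a median longest transcript of 891.5 nt against 3273.5 nt over all genes. Vessel markers ran the other way: the summed CPM of 9 endothelial and mural genes was 205, 334 and 179 in OVX and 275, 208 and 263 in E2 libraries. The astrocyte sum was higher in OVX replicate 2 (2219) and E2 replicate 3 (2340) than in E2 replicate 2 (1940), while the oligodendrocyte sum was 2313 and 1829 in the former 2 and 2020 in E2 replicate 2. Choroid plexus markers summed to 814, 1099 and 707 in OVX and 1051, 416 and 648 in E2 libraries. The part of transcript length or of other cells in the deviations of the 82 genes was not tested.

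**Figure D4:**
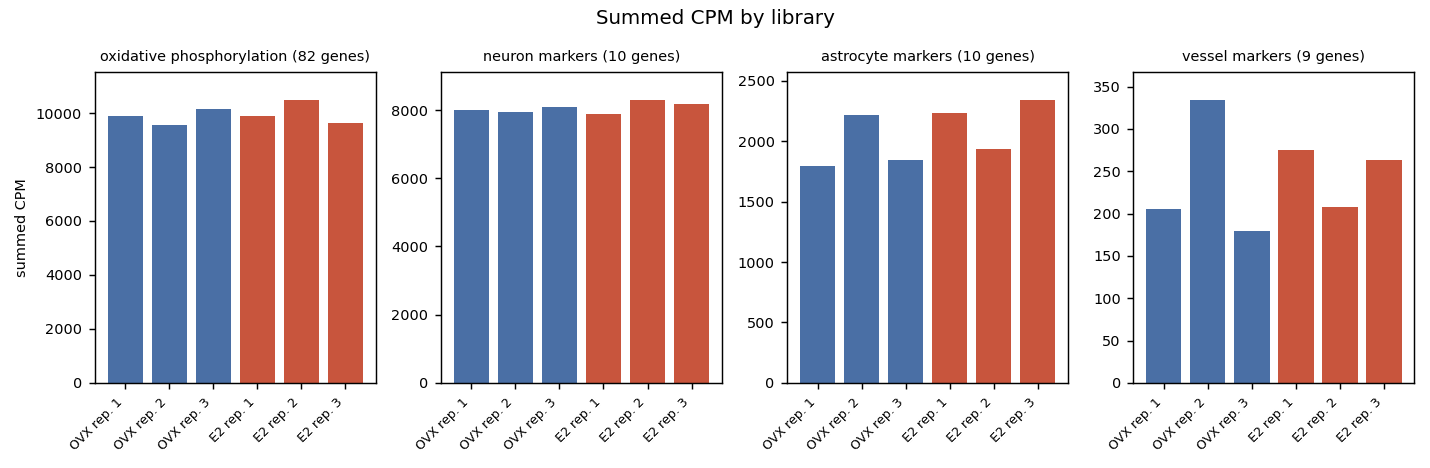
Summed CPM (y axis, starting at 0) is drawn for each library as a bar, blue for OVX and red for E2, for the 82 oxidative phosphorylation genes and for 10 neuron, 10 astrocyte and 9 vessel marker genes. The first 2 sums are nearly level over the libraries, while the vessel sum runs from 179 to 334 and is highest in OVX replicate 2, where the oxidative phosphorylation sum is lowest (9543).

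Levels between genes were compared per kilobase of the longest transcript, as log2 CPM per kilobase over all 6 libraries. The median over the 82 genes was 6.42 against 3.06 over all genes and 4.43 over listed genes with a longest transcript under 1000 nt. Without the division by length the medians of the 82 and of all genes were 6.12 and 4.76. By complex the median per kilobase was 6.06 in I, 6.30 in II, 6.77 in III, 7.11 in IV and 6.94 in V. The highest were *Atp5b* (9.13), *Cox8a* (8.73), *Atp5a1* (8.65), *Atp5g3* (8.48) and *Cox4i1* (8.47). *Ndufa4*, at 7.97, was the highest of the genes placed in complex I by symbol, and its protein is known as a subunit of complex IV. Among the genes below the bulk were *Sdhc* (4.25) and *Cycs* (3.84), whose longest transcripts are 3171 and 3123 nt. With the median transcript length *Sdhc* came to 6.21 while *Cycs* remained at 3.84. Low genes with shorter transcripts were *Ndufb4* (3.84, 971 nt), *Atp5g2* (3.74, 753 nt) and *Atp5s* (3.15, 1599 nt), while *Ndufb2* (3.54) had a longer one of 4371 nt.

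**Figure D5:**
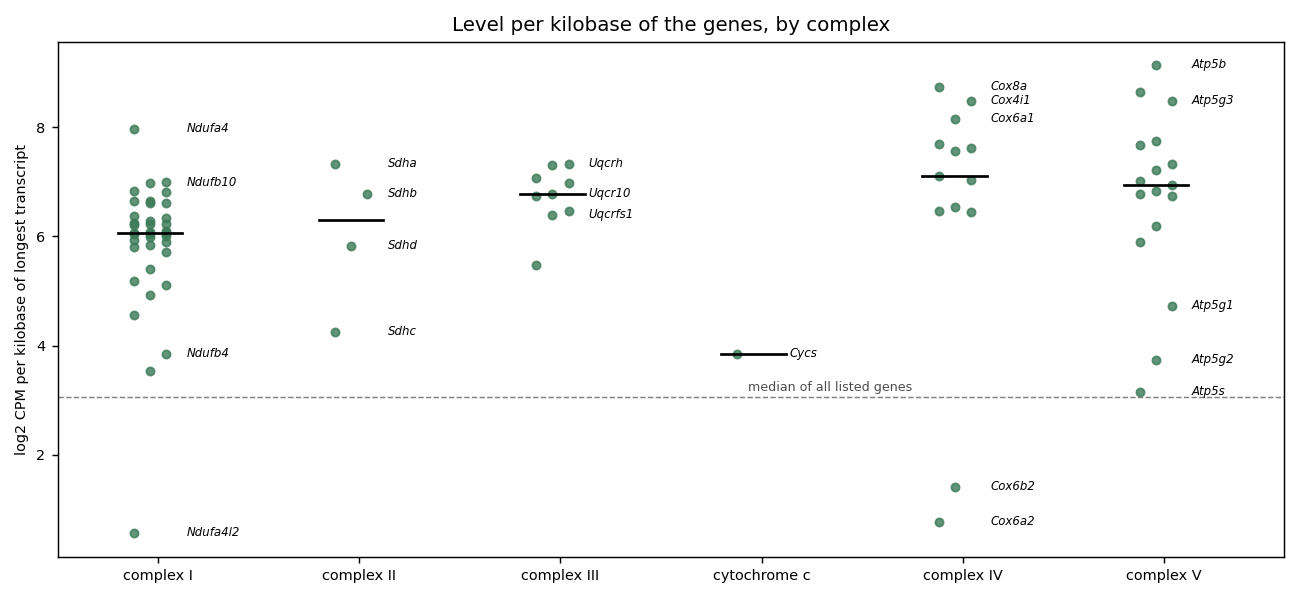
The mean log2 CPM per kilobase of the longest transcript (y axis) is plotted for each gene by complex, with a bar at the median of the complex and a dashed line at the median of all listed genes (3.06). All but 3 of the genes placed in a complex lie above the line, and the 3 below it are *Ndufa4l2*, *Cox6b2* and *Cox6a2*.

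Some subunits are encoded by several genes, and in 3 such pairs 1 gene was far above the other. Per kilobase, *Cox6a1* was 168-fold above *Cox6a2*, with a log2 gap of 7.39 ± 0.46 (SD, n = 6 libraries). *Cox6b1* was 78.4-fold above *Cox6b2*, and *Ndufa4* was 169-fold above *Ndufa4l2*, a relative known to be induced by hypoxia. The gap was at least 5.26 in every library for each of these pairs. Among the subunit c genes *Atp5g3* was 13.6-fold above *Atp5g1* and 26.8-fold above *Atp5g2*, and the former fell to 7.76-fold with the median transcript length. *Cox7a2* and *Cox7a2l*, which promotes the joining of complexes III and IV, were close, at a ratio of 1.41. *Cox4i2*, *Cox7a1*, *Cox7b2*, *Cox8b* and *Cox8c*, other tissue forms of the same subunits, were not among the listed genes. Within ATP synthase, *Atp5a1* was at 0.714 times the level of *Atp5b*, which was 4.91-fold above *Atp5c1* (the gamma subunit) and 5.11-fold above *Atp5d* (the delta subunit), the last 2 falling to 2.83-fold and 3.38-fold with the median transcript length. *Sdha* was 1.46-fold above *Sdhb*, and 2.33-fold with the median transcript length.

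The genes lie on 19 chromosomes. Many have processed pseudogenes, whose reads RSEM can share out among copies, and these levels are uncertain where the copies are nearly the same. Of the 81 genes placed in a complex or as cytochrome c, 11 had at least 25% of their 75-base stretches also in another annotated gene, 24 had a smaller share and 46 had none. *Atp5l*, a subunit of the membrane part of ATP synthase, had the highest share, 75.96%, over 10 other genes, and *Atp5o* (39.14%), *Ndufb4* (35.23%), *Uqcrb* (29.07%) and *Cycs* (26.14%) were among the 11. Not all of this sharing was with pseudogenes: *Ndufb6* (31.28%) shared with *Smim27*, which overlaps it, and *Atp5o* shared most with a second entry of that name. The median level per kilobase was 6.44 in the 11 and 6.42 in the 46 without shared stretches, and the median differences were 0.06 and 0.02.

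Lists of genes of neighbouring pathways were counted in the same way. None of the 13 protein genes of mitochondrial DNA was among the listed genes, so the nuclear subunits could not be set beside them. Of 45 genes listed as assembly factors, which build the complexes, 0 passed the threshold by limma. Among them 2 had an unadjusted p under 0.05, and the median difference was 0.044. The list holds *Ndufab1*, a subunit of complex I (difference 0.05, limma, adjusted p = 0.927). Of 18 genes of the citrate cycle and pyruvate dehydrogenase, which feed the chain, 0 passed and 0 were under 0.05 unadjusted (median 0.029). Glycolysis had 0 of 17 passing, 1 under 0.05 unadjusted (*Aldoc*, also an astrocyte marker, difference 0.32), and 12 of 17 differences below 0 (median -0.025). The mitochondrial ribosome had 0 of 78 and 1 (median 0.008), mitochondrial carriers and related genes 0 of 14 and 1 (median 0.021), and antioxidant enzymes 0 of 9 and 0 (median -0.006). Cytosolic ribosomal proteins, read for comparison, had 0 of 80 passing and 13 under 0.05 unadjusted, where 8.56% of all genes were. Of their differences 68 of 80 (85.0%) were above 0, against 51.1% of all genes, and the median was 0.09. The groups did not overlap in 18 of the 80 (22.5%, against 13.7% of all genes), with E2 above in all 18. With voom weights 0 genes of each of these lists passed, with 2 assembly factors, 2 glycolysis genes and 13 cytosolic ribosomal proteins under 0.05 unadjusted.

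Of 17 listed regulators of mitochondrial genes and related nuclear receptors, 1 passed. Among them 3 had an unadjusted p under 0.05 (limma), where 8.56% of all genes did. Differences were below 0 for 12 of the 17, with a median of -0.034. The groups did not overlap in 5 of the 17 (29.4%, against 13.7% of all genes), with E2 below in 4 and above in 1. *Esr1*, the estrogen receptor alpha, was at 5.25, 4.93 and 5.30 in OVX and 4.62, 4.39 and 4.35 in E2 libraries, all E2 values being lower, by a difference of -0.70 ± 0.12 (SE; limma, adjusted p = 0.0189). It did not pass without the mean-variance trend (limma, adjusted p = 0.407), without OVX replicate 1 (0.101), without OVX replicate 3 (0.0827) or without E2 replicate 2 (0.101). *Esr2*, estrogen receptor beta, was at 2.72, 2.66 and 3.09 in OVX and 2.2, 2.0 and 1.38 in E2 libraries without passing (adjusted p = 0.191). The factors named for the promoters above had intervals that include 0: *Nrf1* differed by -0.14 (interval -0.37 to 0.10), *Gabpa* by -0.04 (interval -0.32 to 0.24), *Yy1* by 0.05 (interval -0.10 to 0.19) and *Esrra* by -0.02 (interval -0.22 to 0.18). *Ppargc1a*, the coactivator PGC-1 alpha of mitochondrial biogenesis, was at 4.87, 4.81 and 4.80 in OVX and 4.9, 4.5 and 5.05 in E2 libraries, with an SD of 0.04 in OVX and 0.28 in E2 libraries. *Tfam*, which binds and packages mitochondrial DNA, differed by -0.03 (interval -0.22 to 0.16), and *Tfb2m*, a mitochondrial transcription factor, by 0.31 (interval 0.05 to 0.57, limma, adjusted p = 0.48). *Pprc1* differed by -0.18 (interval -0.37 to 0.00) and *Esrrg* by 0.35 (interval -0.09 to 0.79). *Polrmt* differed by -0.11 (interval -0.30 to 0.08) and *Gabpb1* by 0.09 (interval -0.17 to 0.36). *Nfe2l2*, *Ppargc1b*, *Tfb1m* and *Esrrb* differed by 0.05, -0.07, -0.03 and -0.23, each with an interval that includes 0.

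The summed CPM of 4 erythroid genes was 121, 228 and 180 in OVX and 280, 347 and 447 in E2 libraries. All 4 were higher with E2 and had an unadjusted p under 0.05 (limma), where 8.56% of all genes did. The groups overlapped in none of the 4, where they did not in 13.7% of all genes. Of the 4, 2 passed the test, the alpha-globin genes *Hba-a1* and *Hba-a2* (limma, adjusted p = 0.0124 and 0.0469). These are near-identical copies whose reads may be shared. Neither passed without the mean-variance trend (limma, adjusted p = 0.523 and 0.582), with robust empirical Bayes (0.348 and 0.547), without OVX replicate 1 (0.062 and 0.0994), without OVX replicate 3 (0.0572 and 0.0973) or without E2 replicate 2 (0.0542 and 0.142), and *Hba-a2* did not with quantile normalization (0.0534) or without E2 replicate 3 (0.0875). The sum of 8 forebrain excitatory markers, of which 0 passed by limma with the trend or with voom weights and 6 or 5 had an unadjusted p under 0.05, was 1218, 1025 and 940 in OVX and 783, 724 and 935 in E2 libraries, and the groups overlapped in 7 of the 8 markers. *Slc17a7*, the vesicular glutamate transporter and the highest of them, was at 9.91, 9.64 and 9.5 in OVX and 9.22, 9.07 and 9.5 in E2 libraries. The part of these groups in the levels of the oxidative phosphorylation genes was not tested.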

How the data were processed

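RNA-seq was performed on IP RNA from pooled MeA punches, 3 OVX and 3 E2 libraries, with unstranded polyA-selected kits. Per the labels and methods the authors ran FastQC 0.11.8 and Trimmomatic 0.38, aligned reads with STAR 2.6.0a to GRCm38, counted with RSEM, kept protein-coding genes above a CPM minimum, and deposited log2 CPM from voom with TMM scaling. These log2 values, and not counts, were analysed. The authors' table of OVX against E2 comparisons (log2 fold changes, p-values) was not used. Scaled library sizes were taken from the lowest value of each library, which stands for no reads plus the 0.5 of voom. With no molecular identifiers, reads carry counting error that only the spread between libraries covers.

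E2 and OVX were compared with limma 3.58.1 (R 4.3.3) on log2 CPM with a mean-variance trend, treatment as the only term, two-sided p-values adjusted by Benjamini-Hochberg over 13886 genes, and a threshold of 0.05. The pipeline was tested on simulated data. An exact permutation of 3 against 3 libraries reaches p = 0.1 at the lowest, so none was used. Transcript lengths and positions came from GENCODE (GRCm38) and promoter windows from RefSeq (GRCm38.p6). Among the genes without a promoter window were *Atp5a1*, *Atp5f1*, *Atp5mpl*, *Atp5s*, *Cox4i1*, *Cox6a2*, *Cox6c*, *Cyc1*, *Ndufa2*, *Ndufa4l2*, *Ndufb9*, *Ndufs1*, *Sdhc*, *Uqcrb*, *Uqcrc2* and *Uqcrq*.

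The genes, the lists and the tests were chosen with earlier results of these data known. Genes named were the 3 highest and the lowest per kilobase of each complex, all of complex II, *Cycs*, the 5 largest differences in each direction, the 5 largest SDs within groups, tissue isoforms, called genes and regulators of the pathway lists, and the highest gene of a marker list. *Kiss1*, *Ndufa13*, *Atp5c1*, *Atp5d*, *Atp5l*, *Atp5o*, *Ndufb2*, *Ndufb4*, *Ndufb6*, *Ndufab1*, *Aldoc* and the erythroid genes were named after their values were seen. A gene is counted but not reported here by name. Alternatives covered weights, scaling, filters, pseudocounts, a replicate block, transcript length and leaving out each library.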

Additional observations from a re-analysis of the deposited data

How the results depend on the processing

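None of the 82 genes passed the threshold under any of the 17 alternatives run with limma, and the smallest adjusted p among them ran from 0.313 to 0.856. Without a mean-variance trend 0 of all 13886 genes passed in that fit, 1017 of them having an unadjusted p under 0.05, where 40 passed with the trend and 46 with voom weights, and the cause was not tested. With 1 library left out the genes passing ran from 20 to 66 (21 without OVX replicate 1, 26 without E2 replicate 1, 20 without E2 replicate 2 and 66 without E2 replicate 3), and the oxidative phosphorylation genes without overlap from 7 to 17 in place of 3, where between 21.2% and 26.7% of all genes then had none. With 1 library fewer in a group the groups overlap less often by construction. Up to 4 of the 82 genes then had an unadjusted p under 0.05 (without OVX replicate 3), where 1260 of all 13886 genes (9.07%) did. The median level per kilobase was 6.77 with the median transcript length in place of 6.42. Of 558 values of 33 single genes, 527 kept their direction and 31, in 13 genes, did not, none of them past the threshold in either direction. The differences that changed sign were 0.02 for *Atp5a1*, 0.04 for *Sdha* and 0.01 for *Uqcrc1* with quantile normalization, 0.00 for *Sdha* with voom weights and -0.00 for *Sdhd* with median centring. With 1 library left out they ran from -0.05 to 0.02 (*Atp5a1*), -0.02 to 0.07 (*Atp5g1*), -0.24 to 0.07 (*Atp5g2*), -0.11 to 0.20 (*Atp5s*), -0.14 to 0.01 (*Cox7a2*), -0.06 to 0.01 (*Cox7b*), -0.10 to 0.03 (*Ndufa4*), -0.10 to 0.39 (*Ndufa4l2*), -0.04 to 0.04 (*Sdha*), -0.03 to 0.04 (*Sdhd*, *Uqcrc1* and *Uqcrh*) and -0.02 to 0.07 (*Uqcrc2*).

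The labels do not say whether same-numbered libraries were paired, and correlations of deviations cannot settle it. For replicates 1, 2 and 3 these were -0.021, -0.121 and -0.083 across all genes and -0.2, -0.34 and -0.375 across the 82. With a replicate block 35 genes and 0 of the 82 passed. Depth limited *Cox6a2*, *Cox6b2* and *Ndufa4l2*, which were near a CPM of 1, and pools of 4 mice hide variation between animals.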
